A study of Solanum tuberosum with 36 samples.

Results

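The nitrate transporter gene PGSC0003DMG400006913 and the organic cation transporter gene PGSC0003DMG400019233 were followed in leaves of 4 potato (Solanum tuberosum) cultivars during soil drought. They are 2 of the 25289 genes in the expression tables. The study carried both in a list of 15 genes selected on the pair Tajfun and Owacja. A listed gene showed no significant difference between both cultivars before drought, changed in Tajfun under drought, and differed from Owacja under drought. The study's account of its results asks for day 6 or day 10, and a supplementary legend asks for both days. Later rounds of the study kept genes with the largest differences on those days whose RT-PCR profile was the same. Values in Tajfun and Owacja are therefore given as a description without a test, and tests were made only in Gwiazda and Oberon, which that selection did not use.

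Each pair joined a cultivar graded drought-tolerant, Gwiazda or Tajfun, with one graded drought-sensitive, Oberon or Owacja. Plants grew in pots in a half-open greenhouse and watering was stopped 3 weeks after tubers began to form. Leaves were taken on day 0, the watered control, and on days 6 and 10 without water, from 3 plants per group in 12 groups. Every cultivar is 1 genotype and no transgene was used. The plants were treated repeatedly against Colorado beetles and Phytophthora infestans, and no other chemical treatment is described. No plants watered up to days 6 and 10 were analysed here, so drought and plant age cannot be told apart.

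Reads of single libraries were recovered exactly from the group means that were deposited, as described with the processing. The means of Oberon on day 10 rest on 2 libraries although 3 samples are labelled, which leaves 35 libraries with 34298072 to 41041276 reads each (median 39239954). These totals are sums over all genes and exceed the numbers of mapped reads that the study lists for its libraries. They are therefore not the sequencing depth, and the cause was not tested. The study also lists a lower percentage of mapped reads for the Oberon libraries than for those of Gwiazda on each day. Whether mapping to the reference genome contributes to differences in level between these cultivars was not tested. Replicate numbers are not attached to the recovered libraries, and they are called a, b and c within a group. Library c of Oberon on day 6 stood apart from the other 2 of its group, with correlations of 0.870 and 0.883 (log2 values, across genes). The other 32 pairs of libraries within a group had 0.899 to 0.969. The 3 lowest of them, 0.899 to 0.916, were those of Gwiazda on day 6. The study lists a Gwiazda day 6 library with more reads mapped to multiple loci than any other, which cannot be matched to a recovered library. The tables hold gene identifiers without names, so leaf marker genes were not checked. RAB18 (PGSC0003DMG400003531), a dehydrin made by plants that lose water, served as the check of the drought labels. Its level was 32.1 to 180 normalised reads in the 12 day 0 libraries and 691 to 6099 in the 23 libraries of days 6 and 10, so the labels of watered and droughted leaves were not contradicted. The study had chosen these days by their RAB18 level in RT-PCR, so this check is not independent of the sampling.

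Nitrate transporters carry nitrate, a main nitrogen source of plants in soil, across membranes together with protons, and the high-affinity NRT2 family works where nitrate is scarce. The Arabidopsis homologue named by the study for the nitrate transporter gene is AT5G14570, a member of that family that fills the vacuoles of Arabidopsis seeds with nitrate. Organic cation transporters belong to the major facilitator superfamily and move small, positively charged metabolites. The homologue named for PGSC0003DMG400019233 is AT3G20660, which the study also listed as a carbohydrate transporter, so the substrate of the potato protein is not settled by the annotation.

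The PCR primers that the study designed for both genes are shown because they identify the transcripts. They were placed in stretches common to all transcripts of a gene, as the expression values were summed over all transcripts of a gene. Each is 20 bases long, written 5′ to 3′ in lower case throughout.
Nitrate transporter, forward: gtggtgcttggaagctctgt
Nitrate transporter, reverse: ggaattctgtggctttgtga
Organic cation transporter, forward: gccatgaagatcatgcgtaa
Organic cation transporter, reverse: cgccatagagcacaatttca
The GC content is 55.0% in the forward primer of the nitrate transporter and 45.0% in the other 3 primers. Genome positions were not analysed here.

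In Gwiazda, the tolerant cultivar of the first pair, the nitrate transporter fell by day 10 of drought. It stood at 3718, 3513 and 5037 normalised reads on day 0, where normalised reads are whole reads divided by a median-of-ratios size factor common to all libraries. On day 6 it stood at 2589, 2408 and 2515 normalised reads, and on day 10 at 1188, 1530 and 1192. No library of a later day reached the lowest one of the earlier day. Here and below, the share of all genes whose groups separate in this way was not counted, so non-overlap is a description only. From day 0 to day 10 the log2 change was -1.63 ± 0.20 (SE, n = 3 and 3), a level 3.11-fold lower, with an adjusted p of 0.000479 from limma with Benjamini-Hochberg adjustment over all genes tested. That comparison called 43.0% of 19161 genes. From day 6 to day 10 the gene fell by 0.95 ± 0.17 on the log2 scale (limma, adjusted p = 0.0087), where 20.0% of genes were called. From day 0 to day 6 the log2 change of -0.66 ± 0.19 did not pass the threshold of 0.05 (limma, adjusted p = 0.0516, 17.3% of genes called), and its 95% interval ran from -1.10 to -0.22. It passed with a pseudocount of 8, a mean of at least 100 reads, scaling to total reads, or without library b of day 0, at adjusted p-values from limma of 0.0319 to 0.0488. A bulk leaf library cannot tell fewer cells that express a gene from less RNA per cell.

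In Oberon, the sensitive partner, the nitrate transporter did not change past the threshold on either day. It stood at 1254, 1152 and 660 normalised reads on day 0, at 458, 612 and 1461 on day 6, and at 466 and 765 in the 2 libraries of day 10. The libraries of all 3 days overlapped. The log2 change was -0.37 ± 0.46 on day 6 (limma, adjusted p = 0.635, 12.1% of genes called) and -0.67 ± 0.35 on day 10 (limma, adjusted p = 0.191, 33.5% called). The 95% interval on day 10, from -1.52 to 0.18, includes changes nearly as large as that of Gwiazda. From day 6 to day 10 the log2 change was -0.30 ± 0.54 (limma, adjusted p = 0.782, 1.36% called), and 0.06 without library a of day 10. The highest day 6 value belongs to library c, the one that stood apart, and without it the day 6 change was -0.83 on the log2 scale (limma, adjusted p = 0.155), and the change from day 6 to day 10 was 0.17 (limma, adjusted p = 0.803).

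The nitrate transporter was higher in Gwiazda than in Oberon before drought. The main estimate of the difference was smaller on each later day, an order that did not hold without library c of Oberon day 6. On day 0 the mean was 3977 normalised reads in Gwiazda and 997 in Oberon, with size factors taken over these 6 libraries. This is a 4.08-fold difference (log2 2.03 ± 0.27, limma, adjusted p = 0.00932), in a comparison that called 3.38% of 19060 genes. The day 0 libraries of both cultivars did not overlap. On day 6 the difference was 3.37-fold (log2 1.75 ± 0.41, limma, adjusted p = 0.101, 1.02% called) and on day 10 it was 2.16-fold (log2 1.11 ± 0.26, limma, adjusted p = 0.0809, 3.04% called), neither past the threshold. Their 95% intervals on the log2 scale, 0.81 to 2.70 on day 6 and 0.50 to 1.72 on day 10, lie above 0. Without library c of Oberon the day 6 difference was 2.23 on the log2 scale and passed (limma, adjusted p = 0.0238), as did the main day 6 difference with all libraries in 1 fit (limma, adjusted p = 0.000358). Leaving out a library of Gwiazda day 6 gave 1.73 to 1.79, not past the threshold (limma, adjusted p = 0.246 to 0.281).

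The change of this difference with drought was tested as an interaction of cultivar and day over all 35 libraries. The log2 change of Gwiazda from day 0 to day 10 minus that of Oberon was -0.92 ± 0.48 (95% interval -1.90 to 0.05, limma, adjusted p = 0.706), and 0.330% of genes were called. For day 6 the value was -0.28 ± 0.45 (limma, adjusted p = 0.831, 0.478% called), 0.20 without library c of Oberon day 6 and close to 0 without library c of Oberon day 0. The drought responses of this gene in Gwiazda and Oberon were thus not shown to differ.

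Gwiazda exceeded Oberon in the organic cation transporter before drought and on day 10, and the day 6 difference did not pass the threshold. Gwiazda had 1162, 1035 and 999 normalised reads on day 0, whereas Oberon had 48.3, 70.8 and 68.7. Those Oberon values correspond to 46, 72 and 60 reads, or 23, 36 and 30 read pairs, and an exact Poisson interval for 23 pairs is 14.6 to 34.5, which covers counting error only. That interval takes the pairs as independent counts. The day 0 difference was 16.9-fold (log2 4.08 ± 0.25, limma, adjusted p = 0.000481), beside 3.38% of genes called.

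On day 6 the organic cation transporter stood at 1780, 3253 and 898 normalised reads in Gwiazda, whereas Oberon had 167, 50.9 and 430. The groups did not overlap, but both spread widely, by 3.62-fold in Gwiazda and 8.46-fold in Oberon from the lowest to the highest library. The 11.2-fold difference (log2 3.48 ± 0.78, 95% interval 1.66 to 5.30) did not pass the threshold (limma, adjusted p = 0.0951). Without library c of Oberon it was 4.20 on the log2 scale (limma, adjusted p = 0.0615), and with all libraries in 1 fit it passed (limma, adjusted p = 0.000185). Leaving out a library of Gwiazda day 6 gave 3.04 to 3.96, not past the threshold (limma, adjusted p = 0.169 to 0.259). On day 10 Gwiazda had 994, 1481 and 1174 normalised reads and Oberon 23.0 and 83.4. This 26.6-fold difference passed (log2 4.73 ± 0.51, limma, adjusted p = 0.00912, 3.04% called). Leaving out any 1 of the 5 libraries of day 10 gave adjusted p-values of 0.051 to 0.0604 in limma, with log2 differences of 3.84 to 5.63, and 6 to 76 genes called in place of 563.

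No change of the organic cation transporter with drought passed the test in Gwiazda or Oberon. In Gwiazda the log2 change was 0.74 ± 0.42 on day 6 (95% interval -0.23 to 1.71, limma, adjusted p = 0.269) and 0.18 ± 0.20 on day 10 (95% interval -0.27 to 0.64, limma, adjusted p = 0.490). From day 6 to day 10 it was -0.53 ± 0.43 (limma, adjusted p = 0.415). Without library c of day 6, the lowest of its group, the day 6 change of Gwiazda was 1.21 and passed (limma, adjusted p = 0.0342).

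In Oberon the log2 change of the organic cation transporter was 1.34 ± 0.76 on day 6 (95% interval -0.42 to 3.10, limma, adjusted p = 0.297) and -0.43 ± 0.62 on day 10 (limma, adjusted p = 0.627). The direction on day 10 turned on its 2 libraries, with 0.48 without library a and -1.32 without library b. From day 6 to day 10 it was -1.77 ± 1.01 (limma, adjusted p = 0.375). Library c, which stood apart, again held the highest day 6 value, and without it the day 6 change was 0.63 (limma, adjusted p = 0.558) and that from day 6 to day 10 was -1.05 (limma, adjusted p = 0.494). Without library b, the lowest of day 6, the day 6 change was 2.15 and passed (limma, adjusted p = 0.0496). The interaction with cultivar was -0.60 ± 0.84 for day 6 (95% interval -2.33 to 1.12, limma, adjusted p = 0.801, and 0.13 without library c of Oberon) and 0.65 ± 0.89 for day 10 (95% interval -1.18 to 2.48, limma, adjusted p = 0.969). Without library a or b of Oberon day 10 the latter was -0.26 or 1.56.

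**Figure D1:**
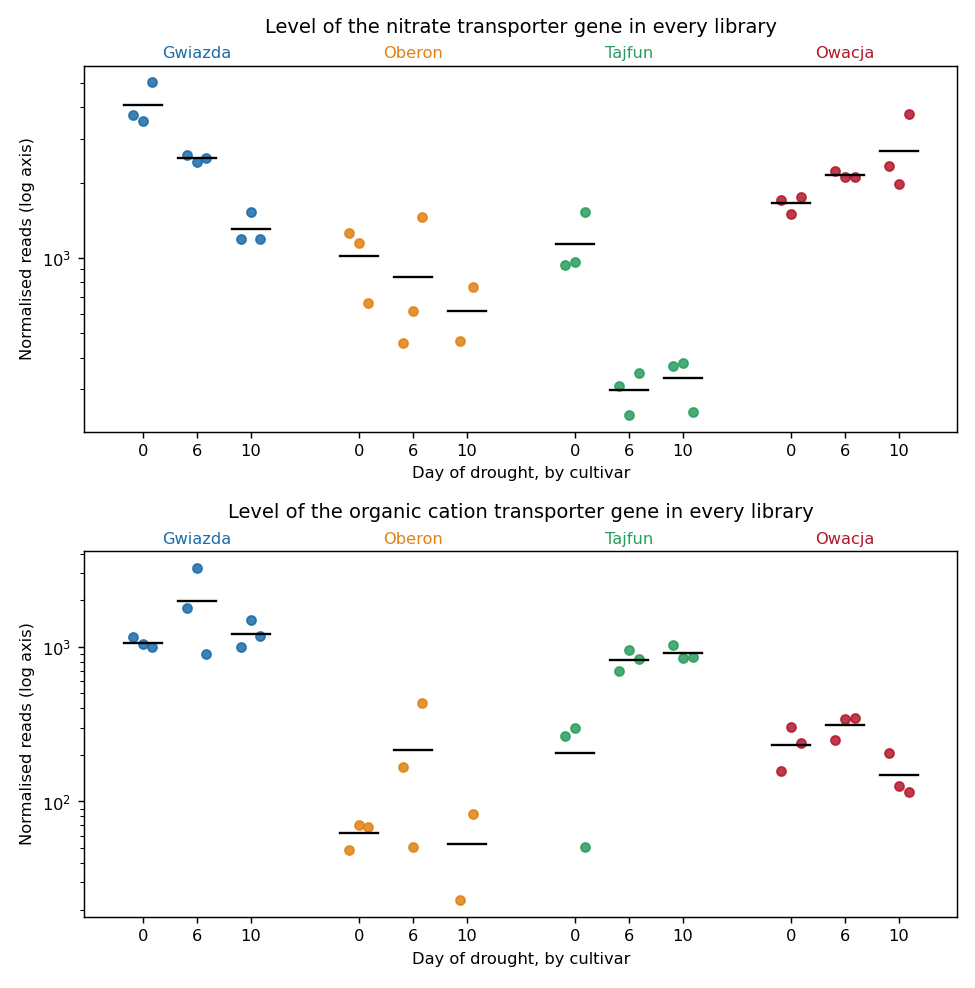
Normalised reads of the nitrate transporter (top) and the organic cation transporter (bottom) in each of 35 libraries on a log axis, by cultivar and day of drought, with points for libraries and black bars for group means. The nitrate transporter is lower in all droughted libraries of Gwiazda and Tajfun than in their watered ones and higher in those of Owacja, and the organic cation transporter lies between 898 and 3253 in all Gwiazda libraries and between 23.0 and 430 in all Oberon libraries.

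In Tajfun and Owacja, the pair on which the genes were selected, the nitrate transporter moved in opposite directions. In Tajfun, the tolerant cultivar, it went from 939, 962 and 1523 normalised reads on day 0 to 308, 236 and 348 on day 6 and 371, 382 and 243 on day 10. Every droughted library lay below every watered one, and the share of all genes that separate so was not counted. The log2 change was -1.87 ± 0.25 on day 6 and -1.74 ± 0.28 on day 10, levels 3.65-fold and 3.34-fold lower. Over all genes tested in Tajfun, the median absolute log2 change was 0.64 on day 6 and 0.85 on day 10.

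In Owacja, the sensitive cultivar, the nitrate transporter went from 1705, 1494 and 1759 normalised reads on day 0 to 2233, 2112 and 2106 on day 6 and 2342, 1970 and 3747 on day 10. Every droughted library lay above every watered one, although the day 10 libraries spread 1.90-fold. The share of all genes that separate so was not counted. The log2 change was 0.44 ± 0.15 on day 6 and 0.68 ± 0.25 on day 10. Over all genes tested in Owacja, the median absolute log2 change was larger, at 0.67 on day 6 and 0.89 on day 10. Scaling to total reads moved the median of all genes by 0.38 on the log2 scale in the day 6 comparison of Owacja and by 0.28 to 0.31 in the other Tajfun and Owacja comparisons with day 0, and by -0.13 in Owacja from day 6 to day 10. The day 6 change of the nitrate transporter in Owacja was 0.44 under the main scaling and 0.82 with scaling to total reads. Relative to the median gene it was 0.42 under either scaling. That match follows from the arithmetic, because a change of scaling moves all genes of a library alike, and it gives no separate support.

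In Tajfun the organic cation transporter was higher under drought. It had 266, 300 and 50.9 normalised reads on day 0, 694, 953 and 830 on day 6, and 1032, 852 and 856 on day 10, so that every droughted library lay above every watered one. The log2 change was 2.40 ± 0.60 on day 6 and 2.53 ± 0.63 on day 10. The size rests partly on library c of day 0, with 50.9 normalised reads, and without it the changes were 1.58 and 1.71.

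Owacja had 158, 302 and 239 normalised reads of the organic cation transporter on day 0, 250, 343 and 348 on day 6, and 205, 126 and 115 on day 10. Each droughted day overlapped day 0, and all day 10 libraries lay below all of day 6. The log2 change from day 0 was 0.52 ± 0.30 on day 6 and -0.61 ± 0.34 on day 10, and that from day 6 to day 10 was -1.10 ± 0.27.

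**Figure D2:**
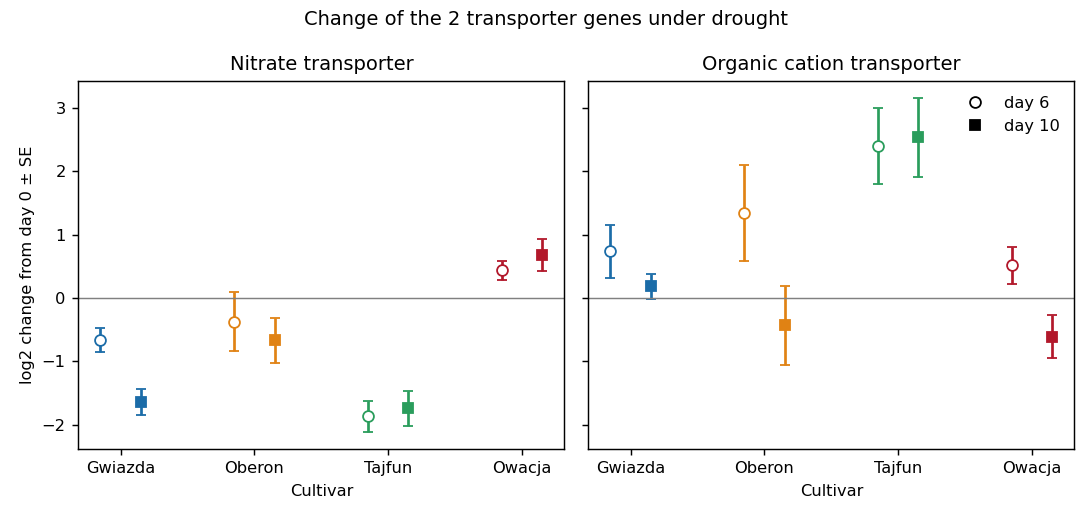
Change from day 0 to day 6 (open circles) and day 10 (filled squares) in each cultivar as log2 difference with its standard error, for the nitrate transporter (left) and the organic cation transporter (right). The nitrate transporter is at -1.63 in Gwiazda and -1.74 in Tajfun on day 10 and at 0.68 in Owacja, and the organic cation transporter is above 2 only in Tajfun.

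Between Tajfun and Owacja the nitrate transporter stood at a log2 difference of -0.59 ± 0.22 on day 0, -2.88 ± 0.17 on day 6 and -2.99 ± 0.29 on day 10. The last 2 are 7.37-fold and 7.94-fold lower levels in Tajfun. The organic cation transporter stood at -0.51 ± 0.65 on day 0 (0.31 without library c of Tajfun), 1.39 ± 0.20 on day 6 and 2.65 ± 0.26 on day 10, the last a 6.28-fold higher level in Tajfun. In both pairs the tolerant cultivar thus had more organic cation transporter reads on days 6 and 10, but in Tajfun a difference under drought was a condition of the selection. Between Gwiazda and Oberon the day 6 difference did not pass the threshold (limma, adjusted p = 0.0951), and Gwiazda was already 16.9-fold higher on day 0. For the nitrate transporter the pairs were opposite, with the higher level in tolerant Gwiazda and in sensitive Owacja. Whether the pairs differ was not tested, because the genes were selected on 1 of them.

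**Figure D3:**
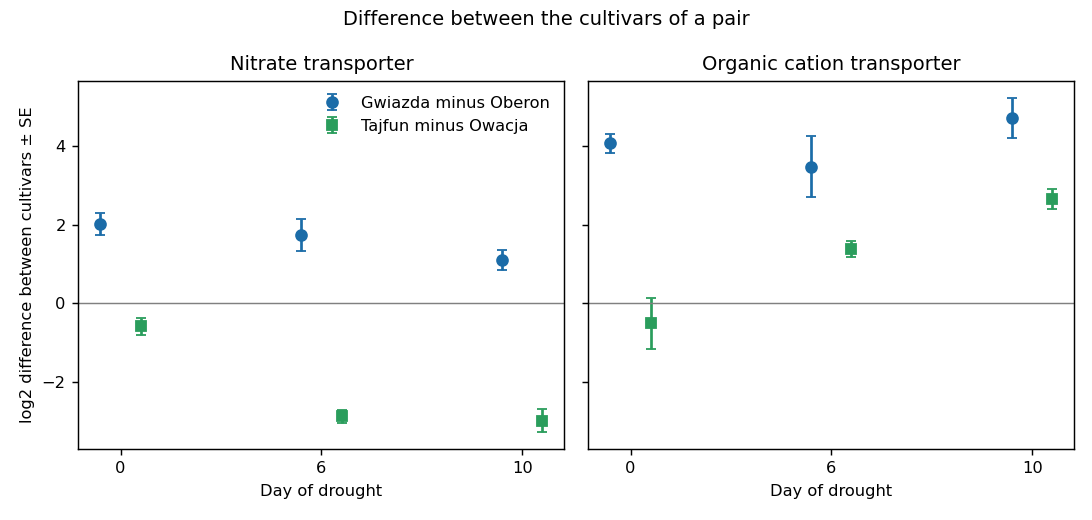
Difference between the tolerant and the sensitive cultivar of each pair on days 0, 6 and 10, as log2 difference with its standard error, for the nitrate transporter (left) and the organic cation transporter (right). Gwiazda minus Oberon is above 0 for both genes on all 3 days, whereas Tajfun minus Owacja lies at -2.88 and -2.99 for the nitrate transporter and at 1.39 and 2.65 for the organic cation transporter on days 6 and 10.

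Ordered by group mean, the nitrate transporter spanned 13.8-fold over the 12 groups, from 4089 ± 827 normalised reads (SD, n = 3) in Gwiazda on day 0 to 297 ± 56.6 in Tajfun on day 6. The descending order was Gwiazda day 0, Owacja day 10, Gwiazda day 6, Owacja day 6, Owacja day 0, Gwiazda day 10, Tajfun day 0, Oberon day 0, Oberon day 6, Oberon day 10, Tajfun day 10 and Tajfun day 6. The libraries of neighbouring groups overlapped in 8 of 11 steps. The 3 steps without overlap were from Gwiazda day 6 to Owacja day 6, from Owacja day 6 to Owacja day 0, and from Oberon day 10 to Tajfun day 10.

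The organic cation transporter spanned 37.1-fold, from 1977 ± 1190 normalised reads in Gwiazda on day 6 to 53.2 ± 42.7 (SD, n = 2) in Oberon on day 10. The descending order was Gwiazda day 6, day 10 and day 0, Tajfun day 10 and day 6, Owacja day 6 and day 0, Oberon day 6, Tajfun day 0, Owacja day 10, Oberon day 0 and Oberon day 10. Neighbours overlapped in 9 of 11 steps, all except those from Tajfun day 6 to Owacja day 6 and from Owacja day 10 to Oberon day 0. The 5 highest groups were thus all 3 days of Gwiazda and both drought days of Tajfun. Watered Tajfun, with a mean of 205 normalised reads, stood with Owacja and not with Gwiazda.

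The ratio of nitrate transporter to organic cation transporter reads within a library does not depend on the size factors, although it carries the lengths of both genes, so only its changes are described. In Gwiazda it was 3.20, 3.39 and 5.04 on day 0, 1.45, 0.740 and 2.80 on day 6, and 1.20, 1.03 and 1.01 on day 10. The ratio in Gwiazda was thus lower in every droughted library than in every watered one. In Tajfun it was 3.54, 3.21 and 29.9 on day 0 and 0.248 to 0.448 in the 6 droughted libraries. In Oberon it was 26.0, 16.3 and 9.60 on day 0, 2.75, 12.0 and 3.39 on day 6, and 20.3 and 9.17 on day 10. In Owacja it was 10.8, 4.95 and 7.36 on day 0, 8.95, 6.16 and 6.06 on day 6, and 11.4, 15.7 and 32.5 on day 10. The ratio lay below the day 0 range in all droughted libraries of Gwiazda and Tajfun and in no droughted library of Owacja. In Oberon it lay below in libraries a and c of day 6 and b of day 10. The study selected both genes on Tajfun and Owacja, so the ratios of that pair carry the selection and give no separate support.

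**Figure D4:**
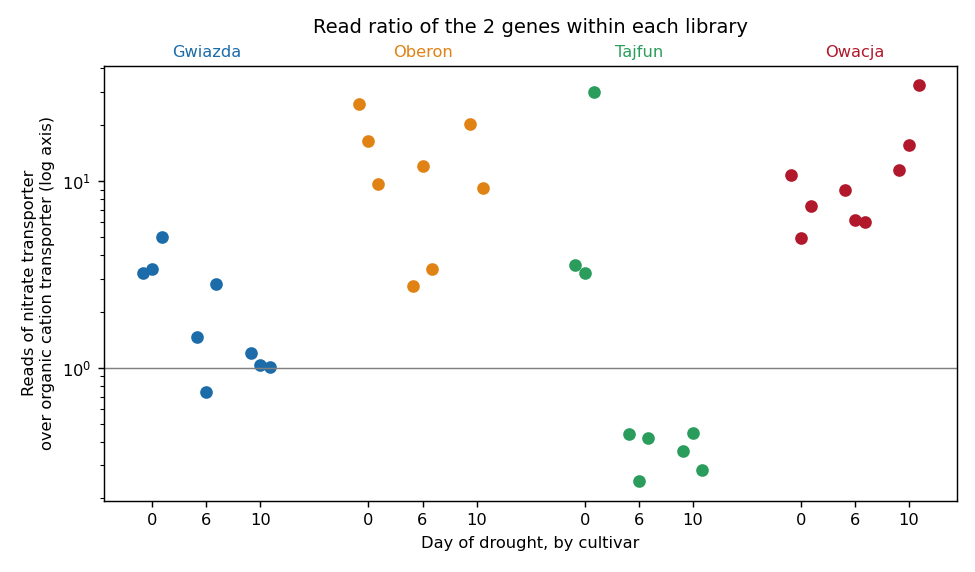
Reads of the nitrate transporter divided by reads of the organic cation transporter within each library, on a log axis, by cultivar and day of drought, where each point is 1 library and the grey line marks a ratio of 1. All droughted libraries of Tajfun lie between 0.248 and 0.448, those of Gwiazda on day 10 between 1.01 and 1.20, and those of Owacja on day 10 between 11.4 and 32.5.

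The organic cation transporter was also set beside RAB18 library by library. In Gwiazda on day 6, where the organic cation transporter spread most in absolute reads, it had 1780, 3253 and 898 normalised reads and RAB18 had 1877, 3468 and 917 in the same libraries a, b and c. Both genes were highest in b and lowest in c. In Oberon on day 6 RAB18 was level, at 1911, 2060 and 2022 normalised reads, while the organic cation transporter stood at 167, 50.9 and 430. In Tajfun on day 6 RAB18 had 3572, 5207 and 3829 normalised reads and the organic cation transporter 694, 953 and 830, both highest in b and lowest in a. In Owacja on day 6 RAB18 reached 6099 normalised reads in library a and 2318 and 2125 in the others, and the organic cation transporter was lowest in library a, at 250. The order of libraries by RAB18 was thus shared in 2 of the 4 day 6 groups. It was shared in no day 0 group, and on day 10 only in Oberon with its 2 libraries. In Oberon on day 0 and in Owacja on days 6 and 10 the order was reversed. Over the 12 group means the correlation with RAB18 was 0.34 for the organic cation transporter and -0.37 for the nitrate transporter (Pearson, log2 values), and that between both transporters was 0.11. These are descriptions over groups that share cultivars and days.

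**Figure D5:**
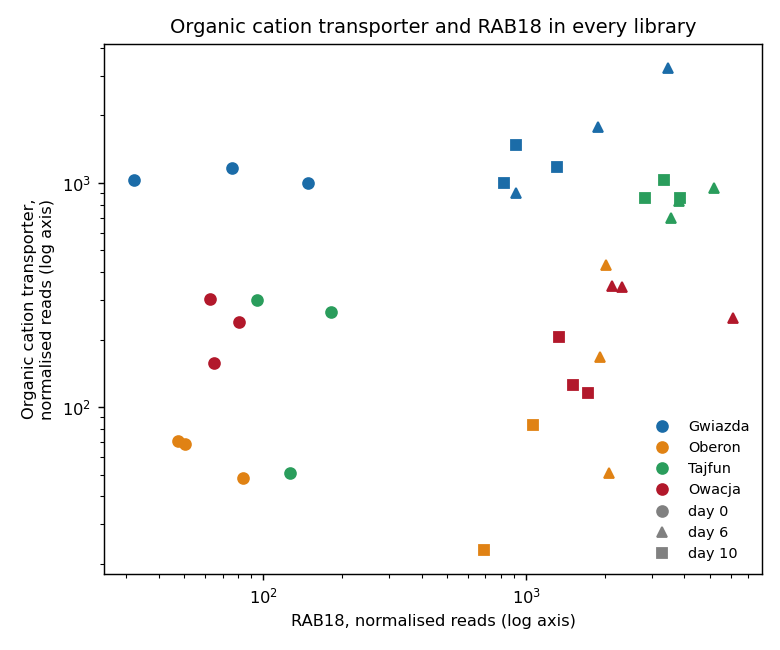
Normalised reads of the organic cation transporter against those of RAB18 in each of 35 libraries, both on log axes, with colours for cultivars and circles, triangles and squares for days 0, 6 and 10. RAB18 separates the day 0 libraries (32.1 to 180) from the droughted ones (691 to 6099) in all 4 cultivars, while the organic cation transporter of Oberon stays at or below 430 on both sides.

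The genes with the most similar profile over the 12 groups were taken from 14129 genes with a mean of at least 100 normalised reads. For the nitrate transporter they were PGSC0003DMG400022139 (Pearson r = 0.90), which ranged from 78.0 normalised reads in Tajfun on day 10 to 451 in Owacja on day 10, and PGSC0003DMG400004348 (r = 0.89), from 1049 in Tajfun on day 6 to 1854 in Owacja on day 0. For the organic cation transporter they were PGSC0003DMG400020464 (r = 0.92), from 327 in Oberon on day 10 to 1401 in Tajfun on day 10, and PGSC0003DMG400025439 (r = 0.91), from 254 in Oberon on day 0 to 1294 in Gwiazda on day 6. They are the best of many genes over few points, and no name was paired with these identifiers in the sources used here.

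The other 13 genes of the list that the study selected in Tajfun and Owacja give a setting for both transporters in Gwiazda and Oberon. By day 10, 8 of them were higher and 2 lower in Gwiazda (43.0% of all genes called), and 8 were higher and 3 lower in Oberon (33.5% called). By day 6, 4 were higher and 2 lower in Gwiazda (17.3% called) and 5 higher and 2 lower in Oberon (12.1% called). The median log2 change of the 13 genes on day 10 was 1.71 in Gwiazda and 0.87 in Oberon, beside -0.01 and 0.03 over all genes tested. The scaling holds the median of all genes near 0, and the median absolute change was 0.81 and 0.76. The list was picked for drought responses and holds more genes selected as higher than as lower in Tajfun, so the contrast of medians gives no separate support. Between Gwiazda and Oberon, 1 of 11 tested was lower in Gwiazda on day 0 (3.38% called), and 2 of 13 were higher there on day 6 (1.02% called) and on day 10 (3.04% called).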

How the data were processed

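RNA from leaves was sequenced as strand-specific paired reads. Per the labels and the study's methods, the authors checked reads with FastQC, aligned them to the potato DM pseudomolecules with TopHat2, estimated reads per transcript with Flux Capacitor, summed them per gene and ran DESeq on each pair of groups separately. The 18 deposited tables hold, per gene, group means of reads divided by size factors (a signal with no unit of depth), and the authors' fold change, p and adjusted p columns, which were not used.

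Each group occurs in 3 tables with 3 sets of size factors, which gives 3 weighted sums of the same reads. Solving them returned whole reads for all 25289 genes in all 12 groups (largest distance from a whole number 9.4e-06), and size factors recomputed from those reads matched the inferred ones in all 18 tables. Oberon day 10 could only be solved with 2 libraries. Because the reads were recovered from means, log2(normalised reads + 1) was tested with limma 3.58.1 (R 4.3.3) with a mean-variance trend, two-sided, on the libraries of the groups compared (all 35 for interactions), for genes with a mean of at least 10 normalised reads, with Benjamini-Hochberg adjustment and a threshold of 0.05. Fold changes are on this scale, which understates low genes. The test was checked on simulated data only for day 0 against day 10 in Gwiazda and in Oberon, with the same spread for all genes. Differences between cultivars, interactions, outlying libraries and groups left with a single library were not simulated.

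Comparisons of days share their control libraries. The genes named are both members, RAB18 and, per member, the 2 genes of highest correlation. Members and lists were chosen with earlier results of these data known. Intervals cover counting error or the spread between plants only.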

Additional observations from a re-analysis of the deposited data

Results flagged for a closer look

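The nitrate transporter moved in opposite directions in every library of some cultivars, and these differences were not tested because Owacja and Tajfun were used to select the gene. The log2 change from day 0 to day 6 in Tajfun minus that in Owacja was -2.30, and for day 10 it was -2.42. Gwiazda, which was not used for the selection, also had every droughted library below every watered one, while every droughted library of Owacja was above. The log2 change of Gwiazda minus that of Owacja was -1.07 for day 6 and -2.29 for day 10. How many of all genes separate their libraries in this way was not counted. The median absolute log2 change from day 0 over all genes tested was 0.58 to 0.89 in Gwiazda, Tajfun and Owacja. Gwiazda and Owacja belong to different pairs.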

How the results depend on the processing

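The 22 tested member results, with 109 alternatives other than leaving out a library, kept their direction and their side of the threshold in 104 and passed it under the alternative only in 5. Those 5 were the nitrate transporter in Gwiazda on day 6, at log2 -0.66 with a pseudocount of 8, -0.66 with a mean of at least 100 reads and -0.70 with scaling to total reads, and the difference of Gwiazda and Oberon on day 6 with all libraries in 1 fit, at 1.75 for the nitrate and 3.48 for the organic cation transporter. Scaling to total reads moved the day 6 change of the nitrate transporter in Owacja to 0.82. The log2 ratios of the authors' means moved no value by more than the spread between libraries.

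Counts of called genes moved more. With all libraries in 1 fit, 5360 genes in place of 3277 were called in Gwiazda on day 6, 5304 in place of 2277 in Oberon on day 6, and 4132 in place of 252 in Oberon from day 6 to day 10. The same fit called 1268 in place of 645, 2714 in place of 188 and 916 in place of 563 between Gwiazda and Oberon on days 0, 6 and 10. Oberon from day 6 to day 10 had 561 calls with a pseudocount of 8, 577 with a mean of at least 100 reads and 139 with total scaling. Between Gwiazda and Oberon, a mean of at least 100 reads gave 425 on day 0 and 56 on day 6, and a pseudocount of 8 gave 303 on day 6. The interaction of day 6 had 6 calls with the libraries of its 4 groups only, in place of 94, and that of day 10 had 106 with no filter and 40 with a mean of at least 100 reads, in place of 65. The causes were not tested.

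Leaving out 1 library at a time gave log2 values of -0.76 to -0.50 for the nitrate transporter in Gwiazda on day 6, 1.41 to 2.23 for it between Gwiazda and Oberon on day 6, 0.30 to 1.21 for the organic cation transporter in Gwiazda and 0.63 to 2.15 in Oberon on day 6, and 3.84 to 5.63 for it between Gwiazda and Oberon on day 10. For Tajfun against Owacja the change of the organic cation transporter from day 0 was 1.07 to 2.34 on day 6 and 2.33 to 3.60 on day 10. Genes called ranged from 1285 to 3246 in Gwiazda on day 6, 1762 to 3616 from day 6 to day 10, 877 to 2479 in Oberon on day 6, 2802 to 5254 on day 10 and 0 to 563 from day 6 to day 10. The 0 came from limma without either library of Oberon day 10, where 2334 and 1706 genes had an unadjusted p under 0.05. The counts ranged from 235 to 619, 19 to 133 and 6 to 76 between Gwiazda and Oberon on days 0, 6 and 10, and from 34 to 236 and 29 to 65 for the interactions of days 6 and 10. With 1 library left in a group, that library is assumed to vary like the others. No paired analysis was possible because the recovered libraries carry no replicate numbers. Depth limits the organic cation transporter in Oberon, where a library held as few as 24 reads.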
